A study of Mus musculus with 15 samples.

Results

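A set of 39 interferon-stimulated antiviral genes was examined in mouse cardiac and hepatic allografts. The set was a list of genes known to be induced by interferons, and each gene was read from the brightest of its probes, by the mean signal over all 15 arrays. A probe could be named for 36 of the 39 genes, out of 18216 genes named through RefSeq, while Mx1, Mx2 and Dtx3l were not analysed here. Single-colour arrays were run on 3 grafts or tissues in each of 5 groups. Cardiac allografts were hearts of C57BL/10 (B10, H-2b) mice placed heterotopically in CBA (H-2k) recipients and taken on postoperative day 5 (POD5). Hepatic allografts were livers of B10.BR (BR, H-2k) mice placed orthotopically in B10.D2 (D2, H-2d) recipients and taken at POD5 or POD8. The remaining groups were cardiac controls and hepatic controls. The labels call the controls normal tissue, and the methods too name normal tissues as control groups. The study's results call the controls isografts, and its account of the RT-PCR assay names syngeneic grafts. Which of these they were is not settled, and their strain was not given in the sources used here. All mice were male, their age was not given, and no immunosuppressive treatment of these groups was described. The methods describe experiments on separate mice at each time point, but the labels do not tie single arrays to mice, so P-values measure the spread between these samples.

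Interferons are cytokines that bind receptors on most cells and act through Janus kinases and STAT proteins. Type I interferons lead to a complex with STAT2 and IRF9 that binds the interferon-stimulated response element (ISRE), and interferon gamma, the type II interferon made by activated T cells and NK cells, acts on genes with the gamma-activated sequence (GAS). The products of the induced genes sense foreign RNA, degrade or edit it, block its translation, attach ISG15 or ubiquitin to proteins, or restrict virus entry, release and replication, and many of them are also induced in inflamed tissue without any infection.

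The sequence that such factors bind was looked for in RefSeq promoter windows of assembly GRCm38.p6, each reaching from 250 bases before a start site to 50 after it, on both strands. Of the 36 members, 29 had a window, and 15 of these (51.7%) held the ISRE core, a pair of GAAA blocks with 2 free bases between them, compared with 3.99% of all 27025 genes with a window. The GAS letters TTCNNNGAA were in 9 of the 29 (31%), and in 9.55% of all genes. Such a match is a description of the letters and not a site of binding. Stretches ending before the start site are shown for 8 members, 7 of which were raised in cardiac allografts, beside 30 of all 36 members. Oas1g and Trim30a also had such a stretch, which is not shown. Herc6, Samhd1 and Ifit2, whose cardiac differences were the largest, had no ISRE core in a window. Stat2 is shown because it passed the test in hearts and not in livers, and Rsad2 because its brightest probe passed the test in no comparison of allografts with controls. The capitals mark the ISRE core on either strand (TTTC blocks when read from the other strand), and overlapping cores run together.
Isg15, chr4:156200855-156200904, minus strand: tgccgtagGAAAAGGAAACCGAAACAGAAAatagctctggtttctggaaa
Ifit1, chr19:34640784-34640833, plus strand: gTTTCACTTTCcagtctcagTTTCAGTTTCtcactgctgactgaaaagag
Ifit3, chr19:34583387-34583436, plus strand: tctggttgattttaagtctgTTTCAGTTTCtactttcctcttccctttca
Oas1a, chr5:120907526-120907559, minus strand: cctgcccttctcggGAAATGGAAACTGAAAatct
Oas3, chr5:120777705-120777754, minus strand: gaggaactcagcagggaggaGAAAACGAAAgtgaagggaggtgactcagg
Bst2, chr8:71537567-71537616, minus strand: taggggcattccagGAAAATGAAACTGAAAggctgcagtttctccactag
Rsad2, chr12:26456543-26456592, minus strand: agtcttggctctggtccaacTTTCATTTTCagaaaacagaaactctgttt
Stat2, chr10:128270256-128270305, plus strand: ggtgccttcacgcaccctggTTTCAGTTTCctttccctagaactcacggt

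The 75th percentile of the processed signal of an array ranged from 338 to 710.5 in allografts of either organ and from 1021 to 1247 in cardiac controls, while it was 92.14, 164.8 and 225.8 in hepatic controls 1, 2 and 3. Between 52.5% and 70.47% of probes were well above background on an array. The tissue labels were borne out by cell markers, since all 7 cardiomyocyte markers were higher in cardiac than in hepatic controls (median log2 difference 11.91) and all 7 hepatocyte markers lower (median -10.35). All cardiac allografts lay on 1 slide and all cardiac controls on another, so the slide cannot be told apart from the graft in hearts. In the liver, POD8 allografts 1 and 2 shared a slide with controls 1 and 2, and no POD5 allograft shared a slide with a control. Hepatic POD5 allograft 3 lay on the slide of the cardiac allografts.

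The first comparison asked which antiviral genes were raised in rejecting hearts. In cardiac allografts at POD5, 30 of the 36 members rose above the cardiac controls (Limma, Benjamini-Hochberg adjusted P under 0.05) and none fell, where 15.4% of all probes tested rose and 16.1% fell. Among the brightest probes of all named genes, 18.1% rose. The median log2 difference of the members was 1.79, with a range from -0.43 to 3.28, and that of all named genes was -0.01. The 3 allografts lay above all 3 controls for 31 members, beside 29.1% of all probes. In a whole-tissue sample, fewer cells of a type and less RNA per cell cannot be told apart. The heat map shows the signal of each member on each array.

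**Figure D1:**
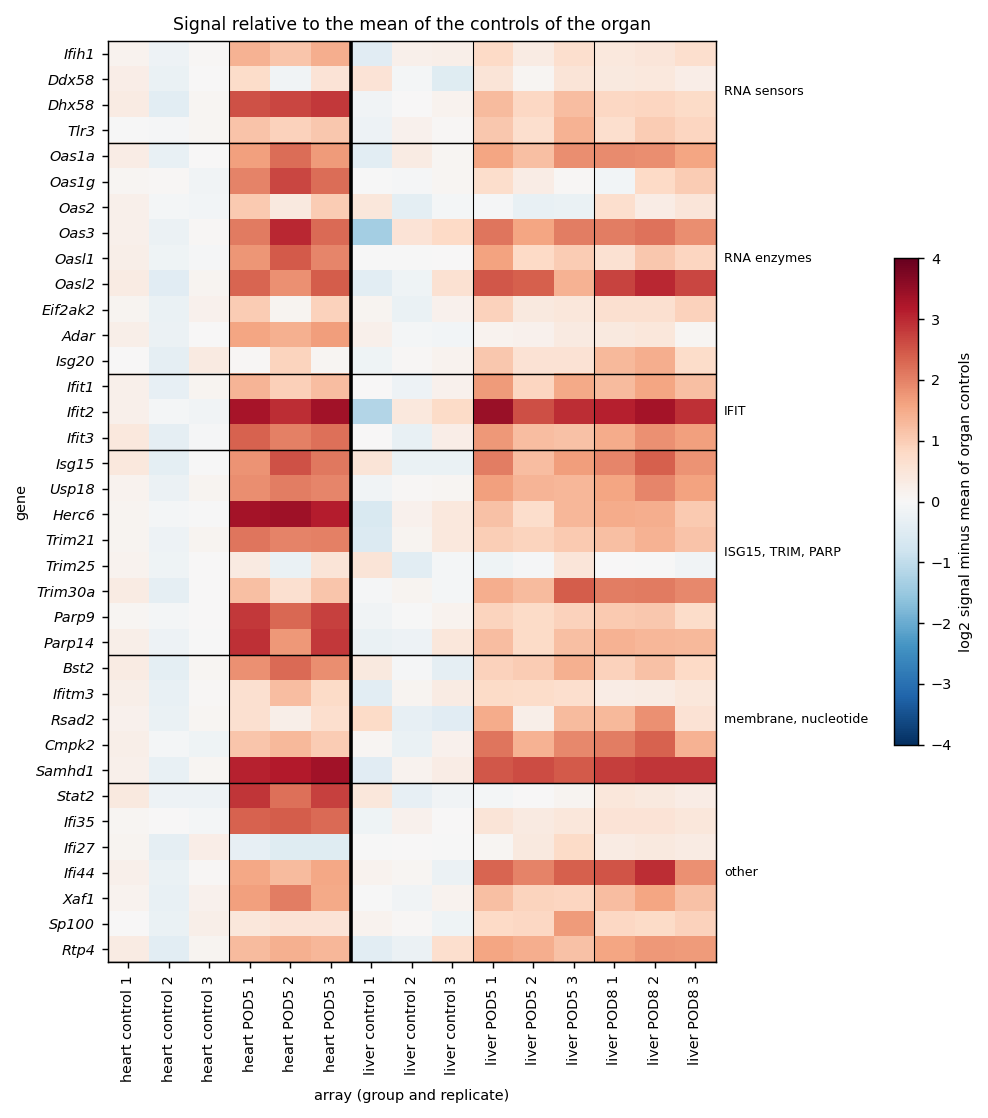
Log2 signal of 36 antiviral genes (rows, by role) on 15 arrays (columns), each minus the mean of the 3 controls of its organ, with red above and blue below that mean. The members' median difference was 1.79 in hearts at POD5, 1.07 in livers at POD5 and 1.19 in livers at POD8.

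Among the RNA sensors, 3 of 4 rose in the heart. Dhx58, which encodes LGP2, a regulator of the RIG-I-like receptors, had log2 signals of 11.57, 11.71 and 11.86 in the allografts and of 9.36, 8.6 and 9.12 in the controls. Its log2 difference was 2.69 ± 0.22 (SE; adjusted P = 0.0017). Ifih1, which encodes the long RNA sensor MDA5, rose by 1.33 ± 0.15 (adjusted P = 0.0035), and Tlr3, the endosomal receptor for double-stranded RNA, by 1.04 ± 0.10 (adjusted P = 0.0024). Ddx58, which encodes RIG-I, differed by 0.38 ± 0.28 and did not pass the test (adjusted P = 0.36).

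Of the 9 RNA enzymes, 7 rose in the heart. Oas3, one of the synthetases whose oligoadenylates activate RNase L, had log2 signals of 9.16, 10.09 and 9.35 in allografts and of 7.27, 6.84 and 7.11 in controls, a difference of 2.46 ± 0.28 (adjusted P = 0.0036). Oasl2 and Oasl1, OAS-like proteins, rose by 2.19 and 2.05, and Oas1a by 1.85. Adar, which edits adenosine in double-stranded RNA, rose by 1.55 ± 0.15 (adjusted P = 0.0025). The probe of Oas1g was well above background on 1 of 3 allografts and on no control, which gave a signal at least 2.8-fold higher in allografts, with an adjusted P of 0.0019. The protein kinase PKR (Eif2ak2, 0.68 ± 0.28, adjusted P = 0.13) and the exonuclease Isg20 (0.34 ± 0.31, adjusted P = 0.45) did not pass the test.

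All 3 IFIT genes, whose products bind foreign RNA ends and limit translation, rose. Ifit2 had log2 signals of 12.25, 11.92 and 12.32 in cardiac allografts and of 9.16, 8.89 and 8.83 in controls, with no overlap. Its difference of 3.21 ± 0.16, or 9.23-fold, was among the 3 largest of the set (adjusted P = 6.9e-04). Ifit3 rose by 2.18 and Ifit1 by 1.18.

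In the ISG15 system, among the ubiquitin ligases and among the PARPs, 7 of 8 members rose. Herc6, the mouse ligase that attaches ISG15 to proteins, showed log2 signals of 10.89, 10.94 and 10.69 in allografts against 7.67, 7.47 and 7.55 in controls. With 3.28 ± 0.11, or 9.68-fold, it had the largest difference of the 36 members (adjusted P = 4.4e-04). The modifier Isg15 itself rose by 2.15, and Usp18, which removes it and dampens interferon receptor signalling, rose by 1.95. The mono-ADP-ribosyltransferase family members Parp9 and Parp14 rose by 2.61 and 2.49, and Trim21, a cytosolic antibody receptor and ubiquitin ligase, by 2.04. Trim25, the ligase that acts on RIG-I, had overlapping groups and a difference of 0.21 ± 0.23 (adjusted P = 0.53).

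Among the membrane and nucleotide effectors, 4 of 5 rose in the heart. Samhd1, which hydrolyses deoxynucleotides, had log2 signals of 13.38, 13.47 and 13.66 in allografts and of 10.50, 10 and 10.36 in controls, a difference of 3.22 ± 0.17 or 9.3-fold (adjusted P = 7.4e-04). Bst2 (tetherin), which holds budding virus at the cell surface, rose by 1.98, the mitochondrial nucleotide kinase Cmpk2 by 1.14 and Ifitm3, which blocks virus entry from endosomes, by 0.88. Rsad2 (viperin) differed by 0.51 ± 0.19 without passing the test (adjusted P = 0.094), although all 3 allografts lay above all controls.

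Of the 7 remaining members, 6 rose. Stat2 had log2 signals of 12.46, 11.78 and 12.33 in cardiac allografts against 9.98, 9.4 and 9.39 in controls, a difference of 2.60 ± 0.26 (adjusted P = 0.0027). Ifi35 rose by 2.35 ± 0.09 (adjusted P = 5.1e-04), Xaf1 by 1.73, Ifi44 by 1.45, Rtp4 by 1.35 and the nuclear body protein Sp100 by 0.51. Ifi27 was the only member with a difference below 0, at -0.43 ± 0.18, and it did not pass the test (adjusted P = 0.13). Without cardiac control 2 its difference was -0.60 (adjusted P = 0.035), and after normexp background correction it was -0.57 (adjusted P = 0.042).

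**Figure D2:**
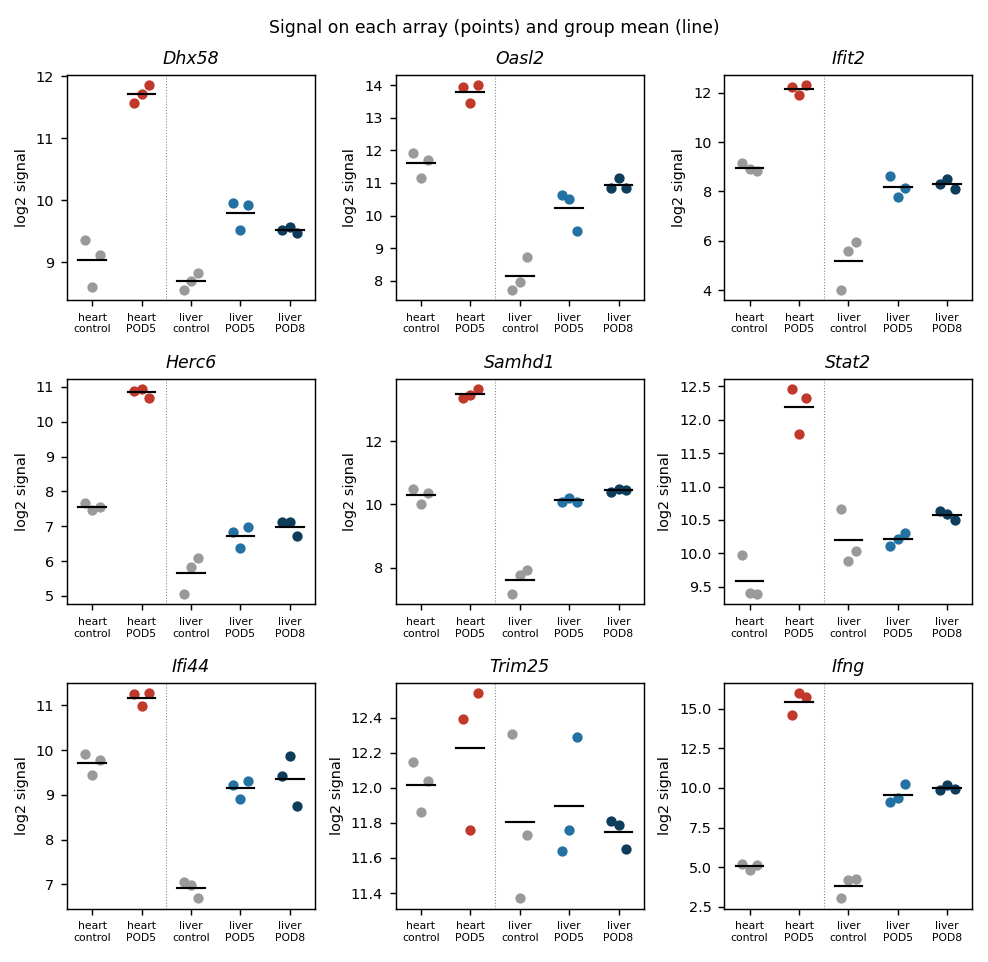
Log2 signal of 8 members and of Ifng on each array (points, 3 per group) with the group mean (line), in hearts left and livers right of the dotted line, each organ normalized on its own. Herc6, Ifit2 and Samhd1 differ between allografts and controls by 3.21 to 3.28 in the heart, and Trim25 overlaps in all groups.

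The next comparison asked the same of the liver. In hepatic allografts at POD5, 22 of the 36 members rose above the hepatic controls and none fell, where 5.74% of all probes rose and 4.16% fell. With the 6 POD5 and control arrays normalized and fitted alone, 9 members rose. Of all named genes, read in the same way as the members, 8.1% rose. The median difference of the members was 1.07, with a range from -0.22 to 2.99, beside -0.04 for all named genes, and 29 members were higher in all 3 allografts than in all 3 controls, beside 12.4% of all probes. Ifit2 had log2 signals of 8.62, 7.76 and 8.14 in allografts and of 4.01, 5.59 and 5.94 in controls, where it was well above background on 2 of 3 arrays. Its difference of 2.99 ± 0.48, or 7.96-fold, was the largest (adjusted P = 0.011). Samhd1, with 10.09, 10.22 and 10.07 against 7.16, 7.77 and 7.93, rose by 2.51 ± 0.20 (adjusted P = 6.2e-04). Ifi44, with 9.23, 8.9 and 9.3 against 7.05, 6.99 and 6.69, rose by 2.23 ± 0.28 (adjusted P = 0.0041). For none of these genes did the groups overlap.

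By role, all 3 IFIT genes rose in the liver at POD5, as did 6 of 8 members of the ISG15, ubiquitin ligase and PARP group, 4 of 5 membrane and nucleotide effectors, 4 of the 7 remaining members, 3 of 9 RNA enzymes and 2 of 4 sensors. Oasl2 had log2 signals of 10.63, 10.52 and 9.54 in allografts and of 7.72, 7.97 and 8.74 in controls, and it rose by 2.09 ± 0.36 (adjusted P = 0.013). Trim30a, a TRIM family ubiquitin ligase, had 9.87, 9.67 and 10.84 against 8.38, 8.52 and 8.34 and rose by 1.71 ± 0.28 (adjusted P = 0.011). Among the sensors Dhx58 changed most, with 9.95, 9.52 and 9.92 against 8.55, 8.69 and 8.83, a rise of 1.1 ± 0.15 (adjusted P = 0.0053). The smallest differences were those of Oas2 (-0.22 ± 0.22, adjusted P = 0.59), Stat2 (0.02 ± 0.20, adjusted P = 0.98) and Trim25 (0.09 ± 0.26, adjusted P = 0.87), and all of these had overlapping groups.

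In hepatic allografts at POD8, compared with the same controls, 22 members rose and none fell, where 5% of all probes rose and 2.83% fell, and where 6.75% of named genes rose. The median difference was 1.19, with a range from -0.05 to 3.12, beside -0.08 for all named genes, and the groups did not overlap for 28 members, beside 12.9% of all probes. Ifit2 had log2 signals of 8.3, 8.51 and 8.1 and differed from the controls by 3.12 ± 0.48 (adjusted P = 0.01). Samhd1 had 10.4, 10.48 and 10.47, a difference of 2.83 ± 0.20 (adjusted P = 4.3e-04). Oasl2 had 10.84, 11.16 and 10.83, a difference of 2.80 ± 0.36 (adjusted P = 0.0049). The POD8 signals of these genes exceeded every control signal. Ifi44 (9.41, 9.87 and 8.75) rose by 2.43, Isg15 (11.68, 12.11 and 11.53, against 10.25, 9.48 and 9.47 in controls) by 2.04, and Tlr3 (5, 5.34 and 5.21, against 4.12, 4.51 and 4.38) by 0.85. The smallest differences were -0.05 ± 0.26 for Trim25 (adjusted P = 0.92), 0.31 ± 0.15 for Adar (adjusted P = 0.27) and 0.35 ± 0.17 for Ifi27 (adjusted P = 0.27).

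Without POD8 allograft 1 or without POD8 allograft 2, 11 members rose at POD8. Within the slide that POD8 allografts 1 and 2 shared with controls 1 and 2, the median difference of the members was 1.42 and 35 of 36 differences were above 0. With these 4 arrays and 2 residual degrees of freedom, Limma called 0 members and 0 of 41157 probes, while 27 members had an unadjusted P under 0.05.

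**Figure D3:**
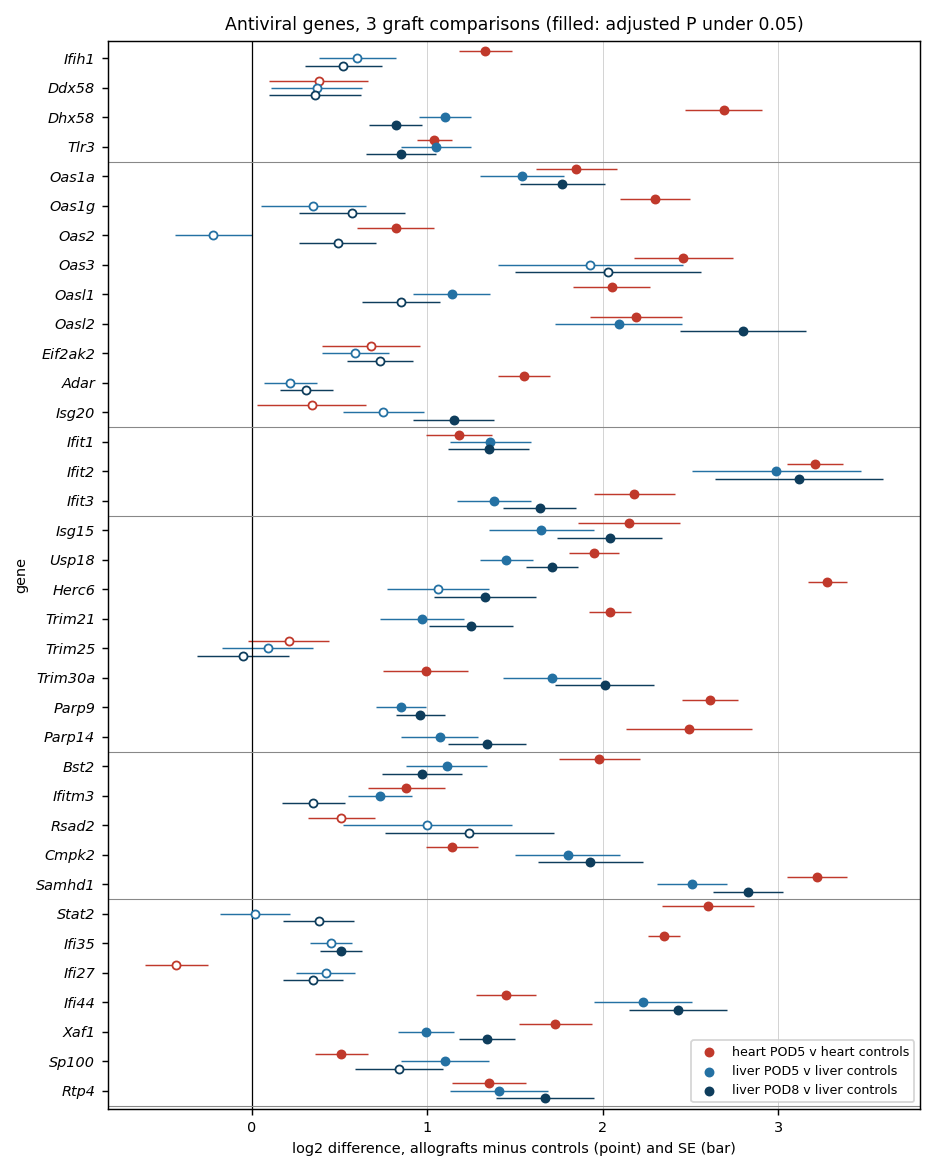
Log2 difference between allografts and controls (point) with its SE (bar) for 36 members by role, in hearts at POD5 (red), livers at POD5 (blue) and livers at POD8 (dark blue), filled where the adjusted P was under 0.05. Filled points number 30, 22 and 22, and all of them lie above 0.

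Set side by side, 19 members rose in all 3 comparisons, namely Bst2, Cmpk2, Dhx58, Ifi44, Ifit1, Ifit2, Ifit3, Isg15, Oas1a, Oasl2, Parp14, Parp9, Rtp4, Samhd1, Tlr3, Trim21, Trim30a, Usp18 and Xaf1. The hepatic comparisons share their controls. Not all of these calls were equally firm under the alternatives run. Trim30a kept its call in hearts under 10 of 20, and Trim21, Parp14 and Bst2 in POD5 livers under 10, 11 and 11 of 22. Tlr3 and Bst2 kept theirs in POD8 livers under 7 and 9 of 24. The other calls of these 19 members were kept under at least 18 of 20, 12 of 22 and 13 of 24. Adar, Ifih1, Oas1g, Oas2, Oas3 and Stat2 passed the test in hearts alone. Oas3 came close to it in livers, with 1.93 at POD5 and 2.03 at POD8 (adjusted P = 0.062 and 0.06). Its organ difference at POD5 was 0.51 (adjusted P = 0.62), so it is not shown to differ between the organs. The same holds for Ifih1, with an organ difference of 0.78 (adjusted P = 0.075). Herc6 and Ifi35 passed it in hearts and in POD8 livers, and Ifitm3, Oasl1 and Sp100 in hearts and in POD5 livers. Isg20 passed it in the liver at POD8 alone, with a rise of 1.15 ± 0.23 (adjusted P = 0.025). Ddx58, Eif2ak2, Ifi27, Rsad2 and Trim25 passed it in none.

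Several members had further probes that read differently. A dimmer probe of Trim25 rose in the heart by 1.52 (adjusted P = 0.0014), where the brightest gave 0.21. The dimmer probes of Rsad2 rose in the heart by 1.42 and 1.14 (adjusted P = 0.0042 and 0.0071), and 1 of them rose in the liver by 2.72 at POD5 and by 3.04 at POD8. Of the 3 dimmer Ddx58 probes, 1 rose in the heart by 0.87 (adjusted P = 0.047). For Tlr3, Trim30a and Oas2 the dimmer probe did not pass the test in the heart (0.28, 0.44 and 0.6). In livers the dimmer probes of Parp14 (0.49 and 0.08 at POD5, 1.03 and 0.77 at POD8) and of Tlr3 (0.86 and 0.73) did not pass it, nor did that of Cmpk2 at POD5 (2.13, adjusted P = 0.051). The dimmer probe of Herc6 rose in POD5 livers by 1.71 (adjusted P = 0.023) and that of Sp100 in POD8 livers by 1.81 (adjusted P = 0.032), where their brightest probes had not passed the test. For Trim25, Rsad2 and Ddx58 the lack of a call in the heart thus holds for the brightest probe and not for all probes of the gene.

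Whether the liver changed further between POD5 and POD8 was asked next. No member differed between hepatic allografts at POD8 and at POD5 by Limma, where 0.00729% of all probes rose and 0% fell. By the same test 1 member, Oas2, had an unadjusted P under 0.05 (0.015), beside 7.9% of all probes. The methods' equal-variance test gave 0 members after adjustment and 5 at an unadjusted P under 0.05. The median difference was 0.17, with a range from -0.37 to 0.71. Oasl2 (0.71 ± 0.36, adjusted P = 0.69), Oas2 (0.70 ± 0.22, adjusted P = 0.53) and Isg20 (0.41 ± 0.23, adjusted P = 0.72) had the largest differences, and Ifitm3 (-0.37 ± 0.18, adjusted P = 0.68), Oasl1 (-0.29 ± 0.22, adjusted P = 0.78) and Dhx58 (-0.28 ± 0.15, adjusted P = 0.70) the smallest. The groups did not overlap for 6 members that were higher at POD8 (Oas2, Oasl2, Trim21, Parp14, Samhd1 and Stat2), beside 9.29% of all probes, and for Ifitm3, which was lower, beside 10.4%.

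The difference between the organs was tested directly at POD5, as the cardiac difference minus the hepatic difference in 1 fit of all 15 arrays. Strain combination and operation differ between the organs along with the tissue and cannot be told apart from it. Slides differ too, except that hepatic POD5 allograft 3 lay on the slide of the cardiac allografts. The slide thus cannot be fully told apart from the tissue. Of the 36 members, 11 had a larger rise in the heart, where 8.53% of all probes and 9.86% of named genes did so, and 1 had a difference in the other direction, where 9.48% and 12.6% did. Stat2 was first, with 2.66 ± 0.34 (adjusted P = 6.0e-04). Its hepatic signals were 10.11, 10.22 and 10.31 at POD5 and 10.66, 9.88 and 10.04 in controls, so they overlapped, while its cardiac groups were apart by more than 1 log2 unit. Herc6 followed with 2.25 ± 0.35 (adjusted P = 0.0019) and Ifi35 with 2.04 ± 0.16 (adjusted P = 4.2e-05). Ifi27 was called in the other direction, with -0.83 ± 0.26 (adjusted P = 0.042), and Ifi44 (-0.73 ± 0.35, adjusted P = 0.17) and Trim30a (-0.65 ± 0.39, adjusted P = 0.27) did not pass the test. The other members with a larger rise in the heart were Parp9, Dhx58, Parp14, Adar, Trim21, Oas2, Samhd1 and Oas1g, whose probe was well above background on 1 of the 15 arrays and gives no size for this difference. None of the 3 IFIT genes passed this test, with Ifit2 at 0.29 ± 0.58 (adjusted P = 0.76). With 1 array left out at a time the count in either direction was lowest, at 7, without cardiac allograft 3, cardiac control 2, cardiac control 3 or hepatic POD5 allograft 2, and it was also 7 with the slide as a random block. The dimmer probes of Herc6 (1.01, adjusted P = 0.13), Adar (0.4, adjusted P = 0.22) and Oas2 (1.05, adjusted P = 0.14) did not pass the test of the organ difference.

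The median of this difference over the members was 0.57, beside 0.08 over all probes. When arrays were scaled to their 75th percentile instead, the median over all probes became 0.64 and that over the members 0.66, so the members then had no larger a difference than the array as a whole, and 18 of 36 lay above the median of all probes. Under that scaling 13 members had a larger rise in the heart and Ifi27 did not pass the test. In the separate cardiac and hepatic comparisons the same scaling moved the median of all probes to 0.47 for hearts, -0.38 for POD5 livers and -0.46 for POD8 livers, and relative to these the members' medians were 1.33, 1.37 and 1.58. For the brightest probes, Ifi35 kept its call under all 24 alternatives run, Stat2, Herc6, Parp9, Dhx58 and Adar under 23 of 24, and Oas1g, Oas2, Samhd1 and Ifi27 under 9 or fewer.

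**Figure D4:**
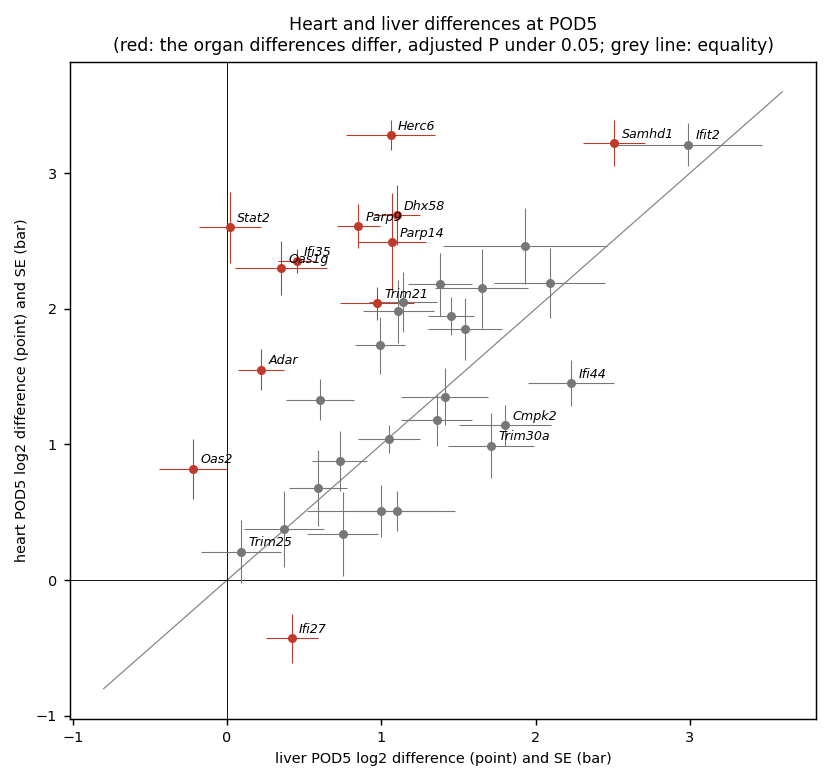
Log2 difference of each member in hearts at POD5 (vertical) against livers at POD5 (horizontal), points with SE bars and each organ normalized on its own, with the line of equal differences. Red points are the 12 members whose organ differences differed in the 15-array fit, and Stat2, Herc6 and Ifi35 lie far above the line while Ifi27 lies below it.

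Control tissues of both organs were compared to describe the levels without an allograft, on arrays normalized together. Whether these controls were normal tissue or isografts is not settled, and their strain was not given. Cardiac and hepatic controls shared no slide, so the slide cannot be told apart from the organ here. In cardiac controls, 17 members were higher than in hepatic controls, where 27.5% of all probes and 33.7% of named genes were, and 11 were lower, where 26.4% and 29.2% were, with a median difference of 0.73. The largest differences were those of Isg20 (2.38 ± 0.28, adjusted P = 1.6e-05), Ifit2 (2.37 ± 0.41, adjusted P = 3.5e-04) and Oasl2 (2.10 ± 0.33, adjusted P = 1.9e-04). All 3 IFIT genes were higher in the heart. Stat2 had the lowest value, -1.98 ± 0.24 (adjusted P = 1.9e-05), followed by Bst2 (-1.57 ± 0.24, adjusted P = 1.2e-04) and Oasl1 (-1.56 ± 0.23, adjusted P = 9.6e-05). The other members lower in the heart were Dhx58 (-1.08), Trim25 (-1.03), Ifih1 (-0.98), Ifi35 (-0.97), Adar (-0.83), Parp9 (-0.83), Ifitm3 (-0.79) and Ifi27 (-0.59), with adjusted P-values between 1.8e-05 and 0.015. A dimmer Adar probe gave the opposite direction (0.42, adjusted P = 0.034), and the dimmer Trim25 probe a difference of -0.02 (adjusted P = 0.96). Dimmer probes of Cmpk2, Oas2 and Rsad2 did not pass the test either, with 0.81, 0.79 and 0.58, and that of Oas3 did, with 1.76. The same cardiac and hepatic controls enter the test between organs given above.

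The genes of the interferon pathway were read from a fixed list. Their counts stand beside the shares of all probes tested. Of these, 15.4% rose and 16.1% fell in hearts. In livers, 5.74% rose and 4.16% fell at POD5, and 5% rose and 2.83% fell at POD8. Ifng, which encodes interferon gamma, had log2 signals of 14.63, 15.98 and 15.71 in cardiac allografts against 5.21, 4.83 and 5.13 in controls, a rise of 10.38 ± 0.38 (adjusted P = 5.1e-04). In the liver Ifng was 9.12, 9.38 and 10.25 at POD5 and 9.87, 10.16 and 9.92 at POD8 against 3.04, 4.18 and 4.25 in controls, a rise of 5.76 ± 0.39 and 6.17 ± 0.39 (adjusted P = 3.6e-04 and 3.0e-04). The hepatic values rest partly on background, since Ifng was well above it on 2 of 3 hepatic controls. Every allograft exceeded every control for this gene, and its rise was larger in the heart by 4.77 ± 0.58 (adjusted P = 4.9e-04).

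Of 9 type I interferon genes with a probe, 2 rose in hearts, none passed the test in POD5 livers, and 1 fell in POD8 livers. Since 18.1% of all named genes rose in hearts, 2 of 9 is near the share of all genes. The risers were Ifna13 (1.09 ± 0.28, adjusted P = 0.036) and Ifna12, which was well above background on 1 cardiac allograft and on no control (at least 2.21-fold higher, adjusted P = 0.027), and the gene that fell was Ifna2 (-0.85 ± 0.21, adjusted P = 0.049). Ifnb1, the interferon beta gene, was not well above background on any array of these groups, and the genes of this family are similar in sequence, so their probes may share targets. The type III gene Ifnl3 passed the test nowhere.

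Of the 6 receptor genes, 1 rose and 2 fell in hearts, where 15.4% of all probes rose and 16.1% fell. In livers 2 rose at each day, where 5.74% of all probes rose at POD5 and 5% at POD8. Ifnar1, a chain of the type I receptor, rose in the heart by 0.59 ± 0.14 (adjusted P = 0.028), whereas Ifngr2 (-0.65 ± 0.14, adjusted P = 0.024) and Il10rb (-0.54 ± 0.08, adjusted P = 0.0085) fell there. In the liver Ifngr1, the ligand-binding chain of the interferon gamma receptor, rose by 1.08 ± 0.15 at POD5 and 0.70 ± 0.15 at POD8 (adjusted P = 0.0057 and 0.031), and Il10rb by 0.84 and 0.89. Ifnar2 and Ifnlr1 passed the test in no comparison with controls.

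Of 4 JAK-STAT genes read, 3 rose in hearts, none in POD5 livers and 1 in POD8 livers. Tyk2 (1.59), Jak2 (1.24) and Irf9 (0.52) rose in the heart, Jak2 also at POD8 (1.04), and Jak1 in none. Irf1, an interferon-induced transcription factor, rose by 3.98, 1.76 and 2.18 in the 3 comparisons, and Irf7 passed the test in the heart alone (2.45 ± 0.17, adjusted P = 0.0012), while Irf3 passed it in none. Over these 3 IRF genes the median hepatic difference was 0.86 at POD5 and 1.56 at POD8, and the lowest -0.50 and -0.56. The lack of a hepatic call is thus not an absence of a difference for both uncalled genes. Socs1, the inhibitor of Janus kinases, rose by 5.60, 4.12 and 4.41, and the inhibitors Socs3 (1.97) and Ptpn2 (0.58) in the heart alone.

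Of 10 other sensors and adaptors, 7 rose and 1 fell in hearts, while 3 rose in POD5 livers and 5 in POD8 livers. The nucleic acid sensor Zbp1 (3.62, 2.13 and 2.48), the adaptor Sting1 (2.05, 1.93 and 2.30) and the DNA sensor Cgas (1.01, 1.71 and 1.58) rose in all 3 comparisons. Ikbke (2.57), Myd88 (1.96), Tlr9 (1.1) and Tbk1 (1.09) rose in the heart, and Myd88 also at POD8 (0.69). Tlr7, the endosomal receptor for single-stranded RNA, fell by 1.85 in the heart and rose at POD8 by 1.62 ± 0.36 (adjusted P = 0.037), and its organ difference at POD5 was -3.06 ± 0.45 (adjusted P = 0.0014).

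**Figure D5:**
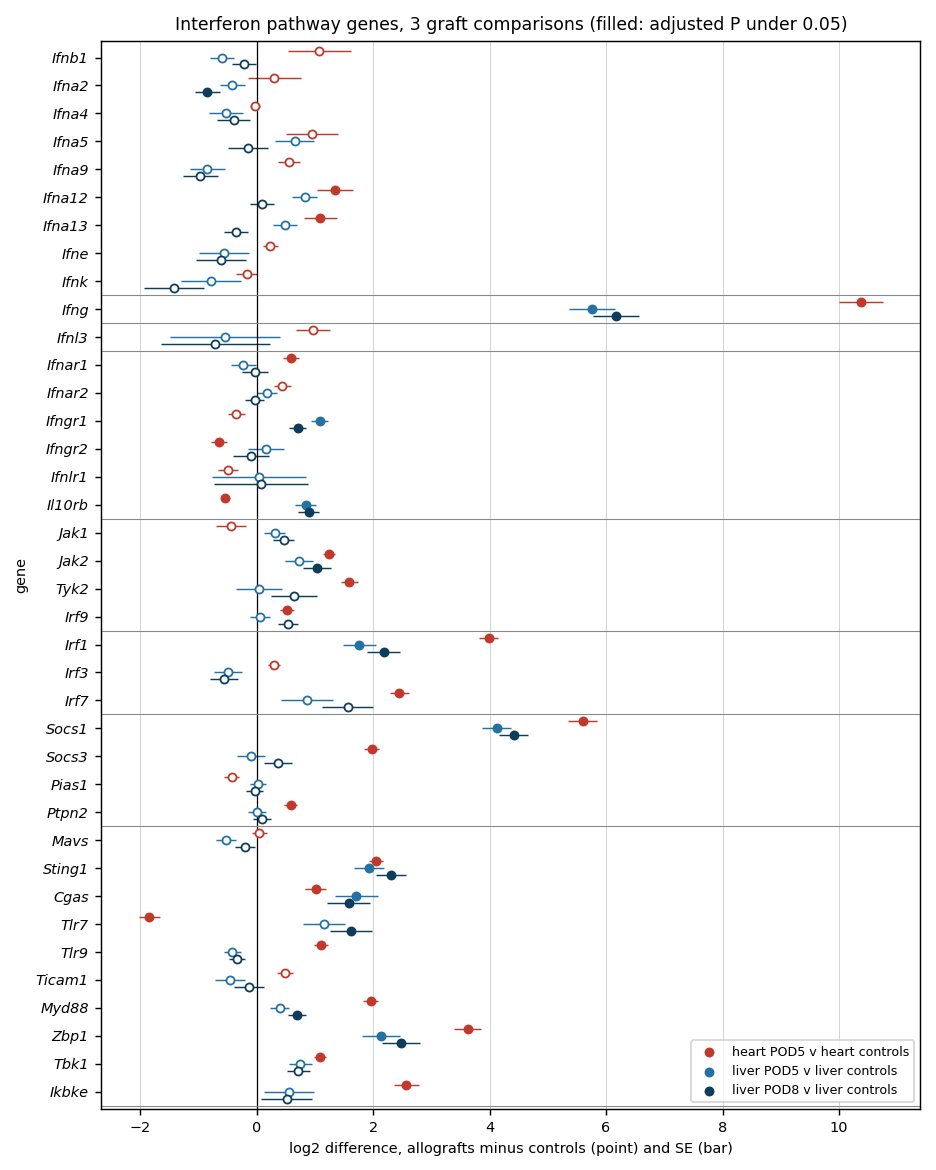
Log2 difference between allografts and controls (point) with its SE (bar) for the genes of the interferon pathway list, from ligands at the top to sensors and adaptors at the bottom, filled where the adjusted P was under 0.05. Ifng lies at 10.38 in the heart, and Irf1, Socs1, Zbp1, Sting1 and Cgas are filled in all 3 comparisons.

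Markers of T cells, and in part those of NK cells, rose along with the members, while few markers of other cells passed the test for a rise. The part of any cell type in these results was not tested. Among all probes, 15.4% rose and 16.1% fell in hearts, while 5.74% rose in livers at POD5 and 5% at POD8. All 7 T cell markers rose in the heart and 6 of 7 in the liver at either day. Their mean log2 signal per array was 11.02 to 11.57 in cardiac allografts against 6.70 to 7.14 in controls, and 9.22 to 9.72 at POD5 and 8.96 to 9.29 at POD8 against 4.75 to 5.26 in hepatic controls. Cd8a was not well above background on any hepatic control. Of 4 NK cell markers, 4 rose in the heart and 2 in the liver at each day. Of 7 macrophage markers, 1 rose and 1 fell in the heart, and 1 rose in the liver at each day. In the liver all 7 differences were above 0 at each day, with medians of 1.53 at POD5 and 1.83 at POD8. Allografts lay above all controls for 4 of the 7 at POD5 and for all 7 at POD8, beside 12.4% and 12.9% of all probes. The mean signal of the macrophage markers was 7.23 to 9.33 in hepatic controls against 10.00 to 10.39 in hepatic allografts. In hearts it was 12.12 to 12.46 in allografts against 12.35 to 12.89 in controls. Among 5 markers of plasmacytoid dendritic cells, a main source of type I interferon, 2 rose and 1 fell in the heart and 1 rose in the liver at each day. Between cardiac and hepatic controls the largest log2 difference in this list was 11.54, beside a median of 11.91 for cardiomyocyte markers. The cardiac counts of this list therefore may not read plasmacytoid dendritic cells alone. No B cell marker passed the test between allografts and controls, with cardiac differences from -0.95 to 1.06. Of the 3 neutrophil markers, 1 fell in the heart and none passed the test in the liver. At POD8 all 3 hepatic neutrophil differences were above 0 (median 0.88). Of the 7 cardiomyocyte markers, 4 fell in cardiac allografts, while no hepatocyte marker passed the test in hepatic allografts.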

How the data were processed

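Total RNA labelled with Cy3 was hybridised to single-colour Agilent arrays. The authors deposited, per spot, a processed intensity made by Agilent Feature Extraction 10.5.1.1 (background subtracted, not normalized between arrays), together with median spot and background intensities. Groups were taken from the sample labels. The intensity was log2 transformed here, outlier spots (between 47 and 113 on each array) were dropped, no spot was saturated, spots of a probe were averaged, and arrays were quantile normalized within an organ, or over all 15 arrays for comparisons across organs. Probes were named by matching transcript accessions to RefSeq of GRCm38.p6, which named 26690 of 41174 probes (64.8%). A probe was well above background where at least 0.5 of its spots were so marked. Precision is limited by the 3 arrays per group. With 3 against 3, an exact two-sided permutation test cannot go below 0.1, so none was used.

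Groups were compared with limma 3.58.1 in R 4.3.3, a method the study names, with Benjamini-Hochberg adjustment over all probes tested at 0.05, after a test on simulated data. The hepatic groups shared 1 fit. At least folds compare the bright group's mean with the higher of the dim probe's signal and the lowest signal well above background. Full statistics are given for the 3 members with the largest and the 3 with the smallest difference per comparison among those well above background throughout 1 group, for any member called against the majority, and for the pathway genes called, with values per array for the member with the largest difference in each role. The members and lists were chosen with earlier results of these data known. A gene of the pathway list is not reported here. Alternatives were other normalizations, normexp with an offset of 50 on the median intensities, a filter on dim probes, outlier spots kept, the mean of a gene's probes, other thresholds, the methods' SFC (bin of 1000) and t-test, variance priors that were trended and robust, all 5 groups in 1 fit, the replicate number or the slide as a block, and leaving out each array. Those that use the slide shared at POD8, or the slide as a fixed block, were chosen after seeing the data. Python 3.11.15 with matplotlib 3.10.9 drew the figures.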

Additional observations from a re-analysis of the deposited data

Results flagged for a closer look

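The cardiac and hepatic differences at POD5 were themselves different, by the Limma test of the difference in 1 fit of all 15 arrays, for 12 members. Of the 36 members tested, 11 were called with a larger rise in the heart and 1 in the other direction. Of all probes, 8.53% and 9.48% were so called. The rise was larger in the heart, as a log2 difference, by 2.66 for Stat2, 2.25 for Herc6, 2.04 for Ifi35, 1.89 for Parp9, 1.67 for Dhx58, 1.6 for Parp14, 1.37 for Adar, 1.13 for Trim21, 1.06 for Oas2 and 0.9 for Samhd1. For Ifi27 the difference was -0.83. The calls of Oas2, Samhd1 and Ifi27 were kept under 9, 8 and 9 of 24 alternatives. Oas1g was also called, with a fitted value of 1.59 that is no measure of size, because its probe was well above background on 1 of the 15 arrays. Strain combinations and operations differ between the organs and cannot be told apart from the tissue. Slides cannot be fully told apart from it, since only hepatic POD5 allograft 3 lay on a slide of the other organ. Groups of 3 arrays are too small for a check of single arrays that stand apart.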

How the results depend on the processing

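No member was called lower in a comparison of allografts with controls under any alternative except Ifi27 in hearts, after normexp or without cardiac control 2. Fewer members were called at stricter thresholds. At an adjusted P under 0.01 the number was 6 in livers at POD5, 10 at POD8 and 6 for the organ difference. With Bonferroni adjustment it was 2 in hearts, 0 in livers at POD5, 1 at POD8, 1 for the organ difference and 0 for controls (31, 29, 28, 18 and 29 at an unadjusted P under 0.05). Of all probes, 44%, 26.4%, 23.2%, 33.4% and 58.9% had an unadjusted P under 0.05 in these comparisons. The methods' SFC called 0 members in hearts, 0 in livers at POD5 and 4 at POD8 (Oasl2, Isg15, Samhd1 and Rtp4), with 18, 17 and 20 at an unadjusted P under 0.05 and 241, 370 and 405 probes called in all. The methods' t-test after adjustment called 2 in livers at POD5 and 5 at POD8. Normalizing and fitting the 6 arrays of POD5 and controls alone gave 9. After normexp the median difference was 1.52 in hearts, 0.85 and 0.93 in livers and 0.4 between controls. Within the slide shared at POD8 0 members were called and the median was 1.42, and with the slide as a fixed block 0 were called (27 at an unadjusted P under 0.05) and the median was 1.38. With the slide as a random block, 7 organ differences were called. The replicate numbers did not pair the samples (correlations of -0.14 to 0.05 between same-numbered arrays), and with them as a replicate block 27, 16, 15, 0, 9 and 21 members were called in the 6 comparisons in the order of the report. Leaving out 1 array at a time gave 26 to 32 members in hearts (median 1.62 to 1.91), 15 to 23 in livers at POD5 (0.95 to 1.25), 11 to 21 at POD8 (0.98 to 1.34), 0 between the days, 7 to 12 for the organ difference (0.43 to 0.73) and 27 to 30 between controls. The lowest organ count, 7, was found without cardiac allograft 3, cardiac control 2, cardiac control 3 or hepatic POD5 allograft 2, and 11 at POD8 without POD8 allograft 1 or 2. Uncalled differences near 0 changed sign. At POD5, Stat2 was -0.13 and Trim25 -0.18 under scaling to the 75th percentile, Stat2 was 0 after normexp and -0.14 to 0.25 leaving out 1 array at a time, and doing so Trim25 was -0.12 to 0.34 and Oas2 -0.41 to 0.01. At POD8, Ifi27 was -0.03 under that scaling, and Trim25 was 0.25 over the mean of its probes, 0.05 by SFC and -0.27 to 0.2 leaving out 1 array. The cause of these changes was not tested. Depth is limited by signal over background, which was lowest in hepatic control 1.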
